A study of Rattus norvegicus with 26 samples.

Results

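The miR-200 family has 5 members on the array, rno-miR-200a, rno-miR-200b, rno-miR-200c, rno-miR-141 and rno-miR-429, out of 677 rat miRNAs. They were taken by name, all 5 were found, and the rule uses no measured value. Liver miRNA was measured on 26 single-colour microarrays, one per male Sprague-Dawley rat, to follow remnant liver after removal of about one lobe (1/3 PH, partial hepatectomy) or of most of the liver (2/3 PH). Normal liver came from 3 rats without PH, although a protocol label of these samples reads sham, and the right lobes of operated rats were taken 6, 12, 24 or 36 hours later. Each of these 8 operated groups had 3 rats, except 6 hours after 1/3 PH with 2. No rat carried a transgene, and no sham-operated group was part of these comparisons, so surgery, anaesthesia and loss of tissue cannot be told apart. The source labels of some rats give a time 1 or 2 hours later than their titles, and the titles were followed.

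The miR-200 family is known for its high level in epithelial cells, where its members repress the transcription factors ZEB1 and ZEB2 and so keep up E-cadherin and the epithelial state. In liver the family is best known from the bile duct epithelium rather than from hepatocytes. Its genes lie in separate clusters, each transcribed as one precursor, and its members use either of a pair of closely related seeds, the bases that pair with a target. MiR-200b, miR-200c and miR-429 use one seed, and miR-200a and miR-141 use the other.

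In RefSeq, on the rat assembly GRCr8, all 5 hairpins were matched. Mir200b, Mir200a and Mir429 follow each other in that order within 1908 bases of the minus strand of chromosome 5. The gene Ttll10 and the long non-coding RNA LOC106182250 are among their nearest genes. Mir200c and Mir141 lie within 509 bases of the minus strand of chromosome 4, with Phb2 and Ptpn6 among the nearest genes. Mature 3p sequences were matched for 2 of the 5 members, and both are shown to set the seeds of the family side by side, 5′ to 3′, with the seed (bases 2 to 8) in capitals. The first lies at chr4:159209969-159209989 and the second at chr4:159209540-159209561, both on the minus strand.
rno-miR-200c-3p: uAAUACUGccggguaaugaug
rno-miR-141-3p: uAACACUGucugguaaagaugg
Counted from 1 at the 5′ end, with the base of miR-200c first, they differ by U4C in the seed and by C9U, G11U and U17A outside it, 4 differences over the 21 bases that both have.

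The chromosome 5 cluster was detected in these livers, and the chromosome 4 cluster was not. By the scanner software's own call, miR-200b was detected on 26 of 26 arrays, miR-429 on 22 and miR-200a on 21. MiR-200c and miR-141 were detected on 0 of 26. Each member has 2 probes of 10 spots each, so every member was read with the same number of spots. The signal of miR-200c before scaling ran from -7.85 to 0.82 units with a median of -4.80 and was below zero on 25 arrays. That of miR-141 ran from -5.13 to 3.77 units with a median of -1.40 and was below zero on 18 arrays. No probe of either was called well above background on any array, and no spot of any member was saturated. After scaling, miR-200c reached at most 0.125 times the floor of its array and miR-141 at most 0.511 times, where the floor is the lowest signal of any probe well above background on that array. Neither can be given a fold or an order, and they were not tested. These values do not show that miR-200c and miR-141 were absent, only that they were not detectable at this signal. The other strands of the hairpins, named miR-200a*, miR-200b*, miR-200c* and miR-141* on the array, were likewise detected on no array (4 of 4).

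**Figure D1:**
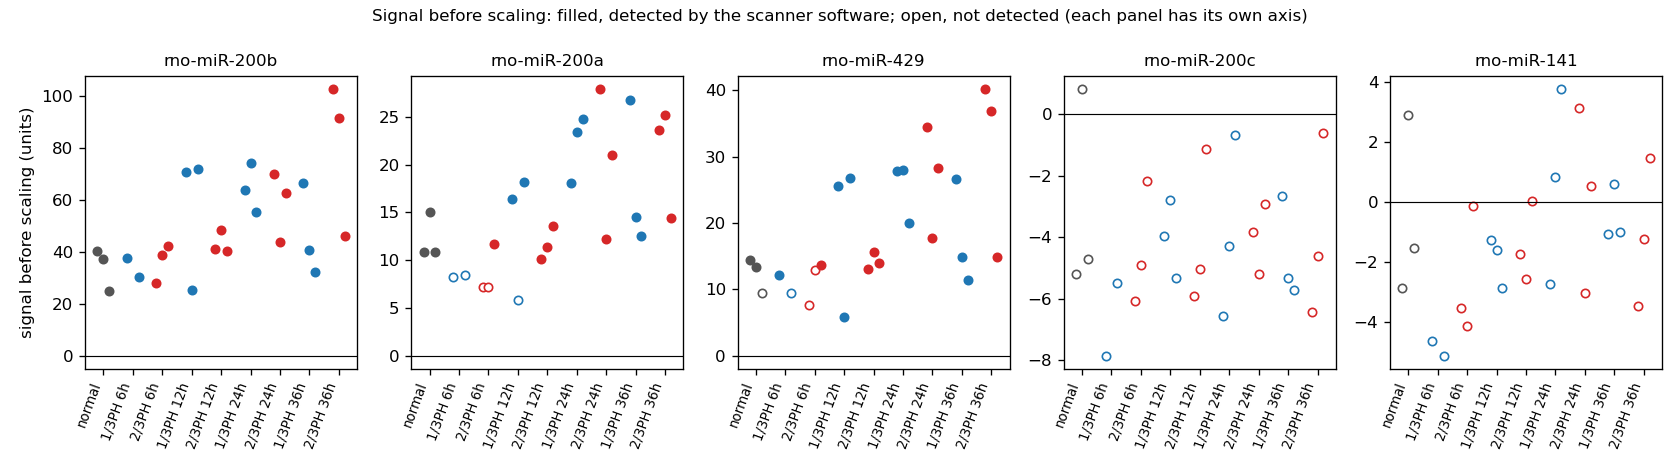
Background-subtracted signal before scaling (units, vertical axis, a separate scale in each panel) of the 5 members by group, 1 point per array, filled where the scanner software called the miRNA detected and open where it did not; the line marks zero. All points of miR-200b are filled, and all 26 points of miR-200c and of miR-141 are open and lie no higher than 3.77 units.

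Signals are given from here on in scaled units: each array was divided by a factor from its own 75th percentile, and a signal under the floor of its array was set to that floor. The floors ran from 6.36 to 24.3 units. Values at a floor have no order among themselves, and they were common for miR-200a (11 arrays) and miR-429 (8 arrays) but absent for miR-200b (0 arrays). A single array stood apart, the second of 12 hours after 1/3 PH, with a total signal of 11768 units against 38371 to 67278 on the others and 91 miRNAs detected against 118 to 155. It had the highest floor, and its miR-200a and miR-429 were at that floor. Liver identity was as labelled: miR-122, the main hepatocyte miRNA, was detected on every array with a geometric mean of 38300 units.

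MiR-200b was lowest in normal liver and at 6 hours. Its highest levels came 12 hours after 1/3 PH and 36 hours after 2/3 PH. The 3 normal livers gave 39.8, 36.1 and 18.3 units. Livers taken 6 hours after 1/3 PH gave 29.4 and 30.5, and those after 2/3 PH gave 29.3, 40.3 and 39.9, both overlapping normal liver. At 12 hours 1/3 PH gave 65.9, 94.8 and 69.8, all above every normal liver, and 2/3 PH gave 49.3, 45.7 and 43.6, also above. The 94.8 belongs to the array of low total signal. At 24 hours 1/3 PH gave 55.4, 63.8 and 51.3, and 2/3 PH gave 58.0, 45.7 and 60.2. Both groups lay above normal liver and overlapped each other. At 36 hours 1/3 PH gave 62.4, 40.9 and 25.6, spread from within the normal range to above it, and 2/3 PH gave 90.3, 79.8 and 58.8, above normal liver. By geometric mean, the order from the lowest was normal liver (29.7), 6 hours after 1/3 PH (29.9), 6 hours after 2/3 PH (36.1), 36 hours after 1/3 PH (40.3), 12 hours after 2/3 PH (46.1), 24 hours after 2/3 PH (54.2), 24 hours after 1/3 PH (56.6), 36 hours after 2/3 PH (75.1) and 12 hours after 1/3 PH (75.9). In all 8 steps of this order the ranges of neighbouring groups overlapped, so no neighbour stood beyond the spread of the other.

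MiR-429, encoded in the same cluster and sharing the seed of miR-200b, gave 14.3, 13.0 and 8.03 units in normal liver, the last at the floor. Both values at 6 hours after 1/3 PH were at the floor, at 11.5 and 17.1, as were 2 of the 3 after 2/3 PH, at 10.99 and 20.2, with the other at 12.8. The livers of 12 hours after 1/3 PH gave 23.8, 24.3 and 25.9 units. The 24.3 is the floor of the low-signal array, with a signal of 21.9 before the floor was set, and has no order against other floors. The other values lay above all those of normal liver and of 6 hours. At 12 hours after 2/3 PH the values were 15.7, 14.6 and 15.1, close together and just above the highest normal liver. At 24 hours 1/3 PH gave 24.2, 24.1 and 18.6, and 2/3 PH gave 28.5, 18.5 and 27.1, all above normal liver. At 36 hours 1/3 PH gave 24.9, 16.1 and 12.1, the latter pair at the floor, and 2/3 PH gave 35.3, 32.2 and 18.9. The group after 2/3 PH lay above normal liver, and the group after 1/3 PH overlapped it.

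MiR-200a, which lies between the other members of its cluster and uses the other seed, was closest to the limit of detection. Normal livers gave 11.1, 14.6 and 8.03 units, the first and the last at the floor. It was detected on neither array of 6 hours after 1/3 PH and on 1 of 3 after 2/3 PH. Before the floor was set, the signals were 6.43 and 8.55 after 1/3 PH, and the livers after 2/3 PH gave 7.46, 7.44 and 10.96. All 5 lay under the highest normal liver. At 12 hours it gave 15.3, 24.3 (the floor of the low-signal array, not detected) and 17.6 after 1/3 PH and 12.1, 12.1 (at the floor) and 14.7 after 2/3 PH. At 24 hours it gave 15.7, 20.2 and 23.1 after 1/3 PH and 23.1, 13.4 (at the floor) and 20.2 after 2/3 PH. At 36 hours it gave 25.1, 16.1 and 12.1 after 1/3 PH, the latter pair at the floor, and 20.8, 22.0 and 18.4 after 2/3 PH. The groups with every array above the highest normal liver were 1/3 PH at 12 hours, with 1 array at its floor, 1/3 PH at 24 hours, and 2/3 PH at 36 hours. How many of all tested miRNAs lay above normal liver in this way was not counted, here or for miR-200b and miR-429.

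**Figure D2:**
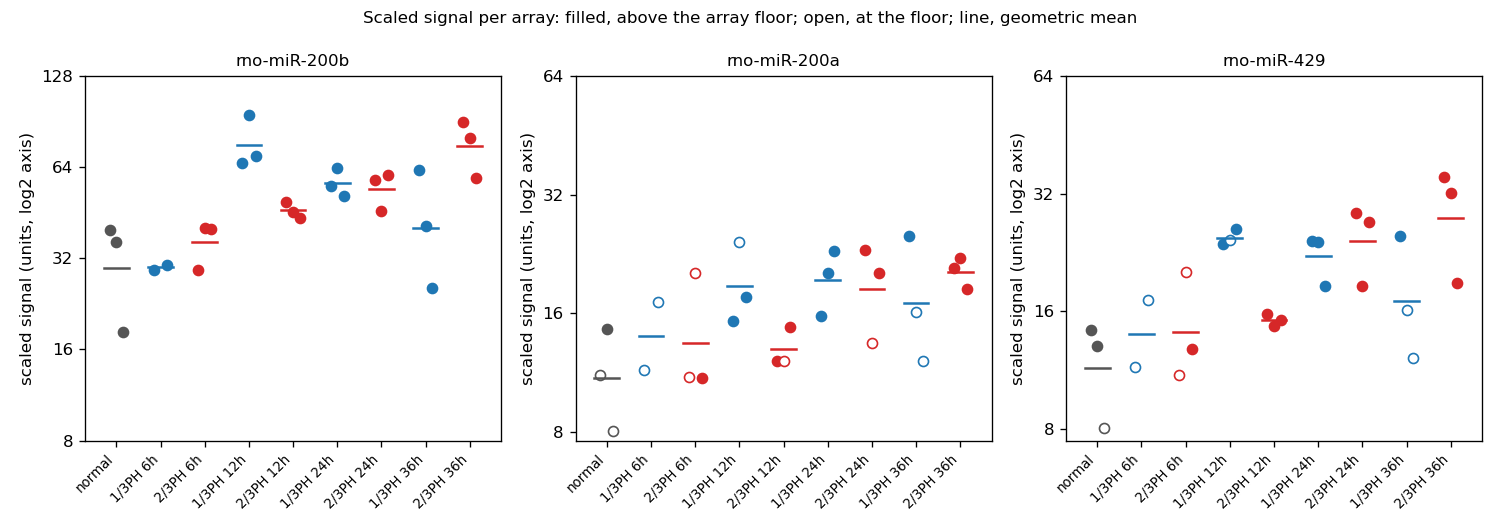
Scaled signal (units, log2 axis) of miR-200b, miR-200a and miR-429 on each array by group, filled above the array's floor and open at the floor, with the geometric mean of each group as a line. The points of miR-200b at 12 hours after 1/3 PH (65.9 to 94.8) and at 36 hours after 2/3 PH (58.8 to 90.3) lie above all 3 normal livers (18.3 to 39.8).

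In the comparison of 1/3 PH with normal liver, miR-200b and miR-429 rose at 12 hours. The difference was 1.35 ± 0.29 (log2, ± SE), or 2.55-fold, for miR-200b (limma adjusted p = 0.0117, n = 3 and 3) and 1.11 ± 0.29, or 2.15-fold, for miR-429 (limma adjusted p = 0.0334). MiR-200a differed by 0.78 ± 0.30 with a limma adjusted p of 0.106. Of the 144 tested miRNAs, 1.39% were called higher in this comparison, and the 2 miRNAs behind that share were miR-200b and miR-429 themselves. The median difference was 1.11 over the 3 detected members and 0.10 over all tested miRNAs. Without the low-signal array the difference of miR-200b was 1.19 (limma adjusted p = 0.0378) and that of miR-429 was 1.12 (limma adjusted p = 0.0583). Both calls were lost without the third normal liver, which had the lowest miR-200b of all arrays (differences 1.00 and 0.85), and that of miR-429 also without any one of the arrays of 12 hours or the second normal liver.

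The other times after 1/3 PH gave no member called by limma, with 0% of the tested miRNAs called higher at 6 and 36 hours and 0.694% at 24 hours. At 24 hours the 3 detected members had some of the highest differences of all 144, with miR-429 at rank 1 (0.95 ± 0.29), miR-200b at rank 3 (0.93 ± 0.29) and miR-200a at rank 4 (0.83 ± 0.30). All 3 had an unadjusted p under 0.05, where 6 of the 144 tested miRNAs were higher, these 3 included. The limma adjusted p was 0.119 for miR-429 and miR-200b and 0.205 for miR-200a. At 36 hours the differences were 0.44 ± 0.29 for miR-200b, 0.64 ± 0.30 for miR-200a and 0.57 ± 0.29 for miR-429. At an unadjusted p under 0.05, 1 of the 3 was higher, against 5 of the 144 tested miRNAs. At 6 hours miR-200b differed by 0.01 ± 0.32 (95% interval -0.66 to 0.67) and miR-429 by 0.29 ± 0.33, and 0 of the 3 members had an unadjusted p under 0.05. MiR-200a was not detected at that time, and no fold is given.

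In the comparison of 2/3 PH with normal liver, the members rose late. At 24 hours miR-429 rose by 1.08 ± 0.29 (log2), or 2.12-fold (limma adjusted p = 0.0138), and miR-200b by 0.87 ± 0.29, or 1.82-fold (limma adjusted p = 0.0437). MiR-200a differed by 0.76 ± 0.30 (limma adjusted p = 0.0875). Of all tested miRNAs 9.72% were called higher at this time. At 36 hours all 3 detected members rose, miR-200b by 1.34 ± 0.29 or 2.53-fold (limma adjusted p = 0.00247), miR-429 by 1.28 ± 0.29 or 2.43-fold (limma adjusted p = 0.0036) and miR-200a by 0.90 ± 0.30 or 1.86-fold (limma adjusted p = 0.0364). The share called higher among all tested miRNAs was 11.1%. The median difference at 36 hours was 1.28 over the 3 members and 0.06 over all tested miRNAs. At 6 hours 0 of 3 members and 0% of the tested miRNAs were called higher by limma, with 0 members at an unadjusted p under 0.05. At 12 hours 0 of 3 members were called against 0.694% of the tested miRNAs, with 1 member, miR-200b, at an unadjusted p under 0.05 (difference 0.63 ± 0.29, limma adjusted p = 0.236). At that unadjusted p, 6 of the 144 tested miRNAs were higher.

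The calls at 36 hours for miR-200b and miR-429 held without any one array, with differences of 0.99 to 1.55 and 1.03 to 1.56, whereas the call of miR-200a was lost without any one of the arrays of its group or without the first or without the third normal liver. At 24 hours both calls were lost without the third normal liver (0.52 for miR-200b and 0.83 for miR-429), without the first and without the third array of that group, and that of miR-200b also without the second, as well as without each of 5 arrays of other groups.

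Slides (6 in all) and scan days (3 in all) were checked as batches. Arrays 1 and 2 of 36 hours after 2/3 PH shared a slide with the third normal liver, and there the difference was 2.21 for miR-200b, 2.07 for miR-429 and 1.42 for miR-200a. On another scan day array 3 and the second normal liver differed by 0.70, 0.54 and 0.33. The direction was the same on both days and the size was not. Array 3 was alone on its slide, so a fit with slide as a fixed block rests on those same 2 arrays and the third normal liver and is no separate check. For 12 hours after 1/3 PH, miR-200b differed by 0.77 within the first scan day and by 1.39 within the third, and miR-429 by 0.79 and 0.90. The values of the third day set 1 array against 1, and the operated one is the low-signal array. Its miR-429 was at the floor, and with a floor of 1 unit the difference there was 0.75. With slide as a fixed block the differences at 12 hours after 1/3 PH became 0.97 (limma adjusted p = 0.0944) for miR-200b and 0.81 (limma adjusted p = 0.157) for miR-429. A single slide held 2/3 PH at 24 hours and 1/3 PH at 36 hours and no normal liver, so for these slide and operation cannot be told apart in the comparison with normal liver. Within the scan day that held them, the difference from the one normal liver of that day at 24 hours after 2/3 PH was 0.45 for miR-200b, 0.76 for miR-429 and 0.73 for miR-200a. With scan day as a fixed block neither call at this time was kept (0.76, limma adjusted p = 0.134, and 0.96, limma adjusted p = 0.065). Within that day the difference at 36 hours after 1/3 PH was 0.02 for miR-200b, 0.24 for miR-429 and 0.61 for miR-200a.

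**Figure D3:**
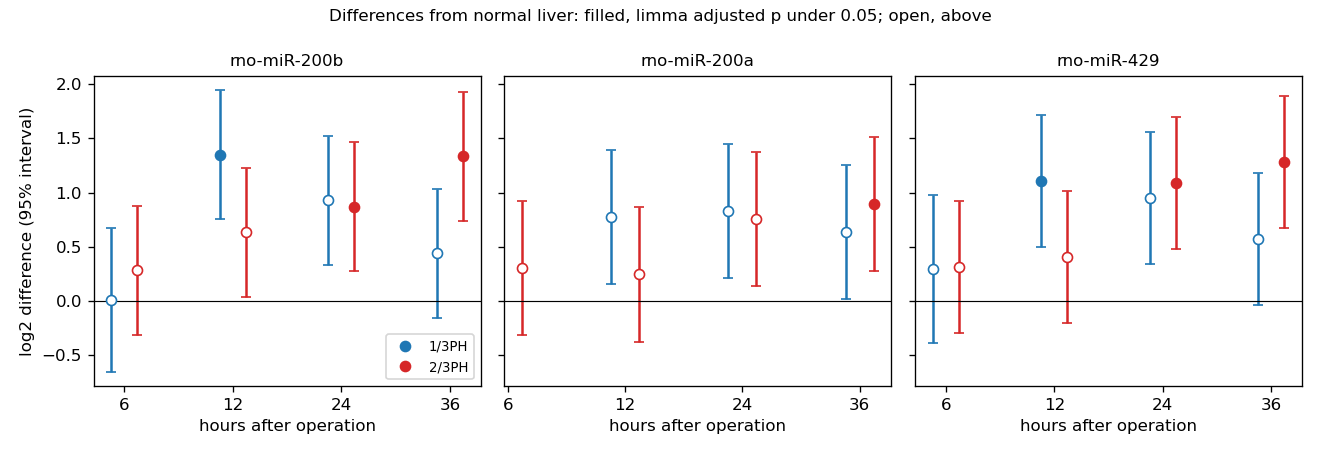
Difference from normal liver (log2, points with 95% intervals) of miR-200b, miR-200a and miR-429 at 6, 12, 24 and 36 hours (evenly spaced) after 1/3 PH in blue and 2/3 PH in red, filled where the limma adjusted p is under 0.05. Among the blue points those of 12 hours are filled for miR-200b (1.35) and miR-429 (1.11). The red points are filled at 36 hours in every panel (1.34, 0.90 and 1.28 from the left) and at 24 hours for miR-200b and miR-429. No point is drawn for miR-200a at 6 hours after 1/3 PH, where it was not detected.

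The operations were also set against each other, to ask whether the extent of resection mattered for these miRNAs. At 36 hours miR-200b was 0.90 ± 0.29 (log2) higher after 2/3 PH than after 1/3 PH, or 1.87-fold (limma adjusted p = 0.0413), although the groups overlapped, with 58.8 the lowest value after 2/3 PH and 62.4 the highest after 1/3 PH. MiR-429 differed by 0.71 ± 0.29 (limma adjusted p = 0.129) and miR-200a by 0.26 ± 0.30. Of all tested miRNAs 10.4% were called higher after 2/3 PH at this time. These 2 groups shared no slide and no scan day, so the operation cannot be told apart from either in this comparison, and a fit with a batch term rests on the arrays of other groups. The call was lost without any one of 10 arrays, among them the third of 36 hours after 1/3 PH, without which the difference was 0.57 (limma adjusted p = 0.248), and it was lost with scan day as a fixed block (1.10, limma adjusted p = 0.116) or slide as a random block (0.97, limma adjusted p = 0.0868).

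At 12 hours the members ran the other way. MiR-200b differed by -0.72 ± 0.29, miR-429 by -0.70 ± 0.29 and miR-200a by -0.53 ± 0.30 (2/3 PH minus 1/3 PH). For miR-200b and miR-429 the 3 livers after 2/3 PH all lay under the 3 livers after 1/3 PH. The low-signal array was at its floor for miR-429, with a signal of 21.9 before the floor was set. For miR-200a that array was at its floor and not detected, so it has no order. The other 2 livers after 1/3 PH lay above all 3 after 2/3 PH. None passed limma's adjusted threshold (adjusted p = 0.589, 0.589 and 0.643), and 0 of the 144 tested miRNAs were called in either direction. At an unadjusted p under 0.05, 2 of the 3 were lower after 2/3 PH. How many of all tested miRNAs lay apart in this way, or were lower at that p, was not counted. At 24 hours the differences lay between -0.07 and 0.13 with 0 of 3 members called, also at an unadjusted p under 0.05, against 2.78% of the tested miRNAs. The 95% interval at 24 hours was -0.66 to 0.53 for miR-200b. At 6 hours miR-200b differed by 0.27 ± 0.32 and miR-429 by 0.01 ± 0.33, with 0 members called at either threshold against 0% of the tested miRNAs. MiR-200a was not detected at 6 hours after 1/3 PH, so no fold is given.

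Late times (24 and 36 hours) were compared with early times (6 and 12 hours) within each operation. After 2/3 PH all 3 detected members rose, miR-429 by 0.83 ± 0.21 (limma adjusted p = 0.00386), miR-200b by 0.65 ± 0.20 (limma adjusted p = 0.0167) and miR-200a by 0.56 ± 0.21 (limma adjusted p = 0.0462), and so did 18.8% of the tested miRNAs. The call of miR-200a was kept under 4 of 13 alternatives and in 12 of 26 fits that each left out 1 array (0.48 to 0.70), whereas those of miR-200b and miR-429 were kept in all 26. The late arrays after 2/3 PH shared no slide with the early ones. Those of 24 hours shared their slide only with 36 hours after 1/3 PH, so a fixed slide block gave no value. With slide as a random block the limma adjusted p was 0.0254 for miR-200b, 0.00916 for miR-429 and 0.0676 for miR-200a, and with scan day as a fixed block it was 0.0218, 0.0106 and 0.0594. After 1/3 PH 0 of 3 members were called, with 0 at an unadjusted p under 0.05, against 6.94% of the tested miRNAs. The values were 0.00 ± 0.21 for miR-200b, 0.06 ± 0.22 for miR-429 and 0.17 ± 0.22 for miR-200a. The difference between the operations in this change was 0.64 ± 0.29 for miR-200b, 0.77 ± 0.30 for miR-429 and 0.39 ± 0.31 for miR-200a. It did not pass for any member (limma adjusted p = 0.215, 0.141 and 0.551), against 5.56% of the tested miRNAs called higher. At an unadjusted p under 0.05, 2 of 3 members and 20 of the 144 tested miRNAs were higher. Several early values of miR-200a and miR-429 were set to a floor above their signal. With a floor of 1 unit instead, the late rise after 2/3 PH was 0.91 for miR-200a and 1.00 for miR-429. After 1/3 PH the change at that floor was 0.58 and 0.27 (limma adjusted p = 0.13 and 0.57). The difference between the operations was then 0.33 and 0.73 (limma adjusted p = 0.692 and 0.212). At 6 hours against normal liver that floor turned the sign of miR-200a after 2/3 PH, from 0.30 to -0.35. It turned that of miR-429 after 1/3 PH from 0.29 to -0.19, and neither passed the threshold. In the deposited log2 table miR-200a was called late against early after 1/3 PH (4.19, limma adjusted p = 0.0294). There it was not called after 2/3 PH (2.69, limma adjusted p = 0.0721).

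Over all times, the mean of the operated groups exceeded normal liver by 0.73 ± 0.21 for miR-200b, 0.75 ± 0.22 for miR-429 and 0.60 ± 0.22 for miR-200a. All 3 had an unadjusted p under 0.05, where 10 of the 144 tested miRNAs were higher. By adjusted p 0 of 3 were called (limma adjusted p = 0.0849, 0.0849 and 0.139), against 0.694% of the tested miRNAs called higher. The mean of 2/3 PH minus that of 1/3 PH was 0.10 ± 0.15, 0.04 ± 0.15 and -0.10 ± 0.15 for miR-200b, miR-429 and miR-200a, with 0 called at either threshold against 2.78% of the tested miRNAs.

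The members of the chromosome 5 cluster varied together from liver to liver. Over the 26 arrays, Pearson's r was 0.905 between miR-200b and miR-429 (Spearman's rho 0.895), 0.852 between miR-200a and miR-429 (rho 0.872) and 0.766 between miR-200a and miR-200b (rho 0.759). Each of the 3 pairs got a two-sided permutation test with 100000 resamples. For r each p was 1e-05, the smallest these can give, with Benjamini-Hochberg adjusted p = 1e-05, and for rho the adjusted p was 2e-05 or less. The points share their array's scaling factor and floor and, for r, the differences between groups, and the median r over all 10296 pairs of tested miRNAs was 0.0216. After subtraction of each group's mean, r was 0.831, 0.746 and 0.71 in the same order (permutation adjusted p = 3e-05, 5e-05 and 5e-05), beside a median of 0.0445 over all pairs. These residuals sum to zero within each group but were permuted freely over all arrays, so these p are approximate and may be too small. With a floor of 1 unit r of the residuals was 0.908, 0.676 and 0.745 in that order, and rho was 0.813, 0.549 and 0.669. Without the 2 arrays farthest from the median of the first-named miRNA, the third normal liver and one other, r was 0.899, 0.813 and 0.698. Without the low-signal array it was 0.921, 0.853 and 0.742. Within the first scan day (17 arrays) it was 0.88, 0.848 and 0.609, and within the third (6 arrays) 0.961, 0.912 and 0.785 with exact permutation adjusted p = 0.0125, 0.0125 and 0.0472. The second scan day held 3 arrays, too few for a value.

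**Figure D4:**
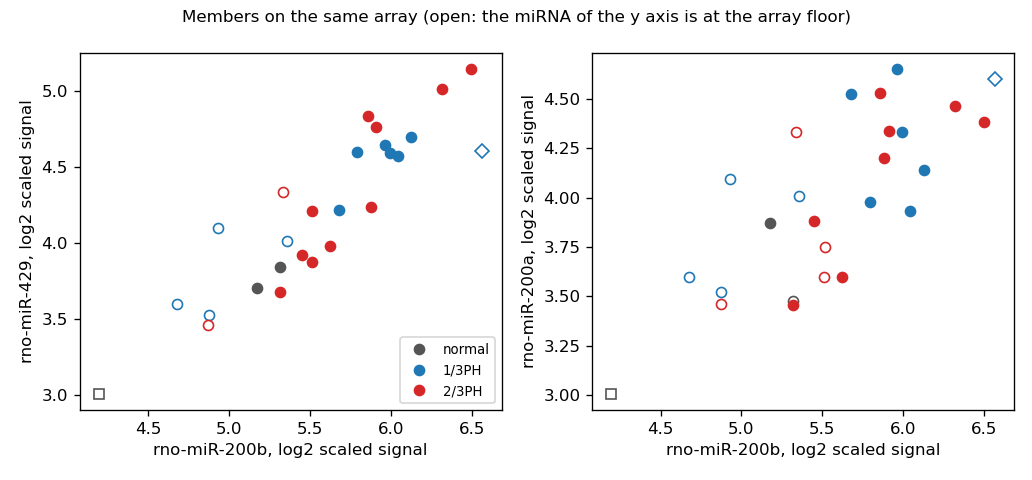
Log2 scaled signal of miR-429 (left) and miR-200a (right) against that of miR-200b on the same array, 26 arrays, coloured by normal liver, 1/3 PH and 2/3 PH. Open points mark arrays on which the miRNA of the vertical axis is at the floor, the square is the third normal liver and the diamond the low-signal array; r is 0.905 on the left and 0.766 on the right.

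Outside the family, the patterns most like each member over the 26 arrays were less close than those within it. For miR-200b they were miR-34a (r = 0.62), miR-98 (r = 0.603) and miR-1949 (r = 0.6). For miR-429 they were miR-34a (r = 0.722), miR-18a (r = 0.678) and miR-1949 (r = 0.664). For miR-200a they were miR-199a-5p (r = 0.651), miR-17-5p (r = 0.605) and miR-221 (r = 0.594). MiR-34a is known as a target of p53, and miR-17-5p and miR-18a come from the miR-17-92 cluster. MiR-199a-5p is on the list of mesenchymal and stellate cell miRNAs used below. MiR-18a was detected on 14 of the 26 arrays and miR-221 on 16, so array floors enter their r. These values are a description over the same arrays, with no test.

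Both probes of a member ran the same way where it was called against normal liver. The brighter probe of miR-200b averaged 26.9 units in normal liver, 64.97 at 12 hours after 1/3 PH and 63.95 at 36 hours after 2/3 PH. The dimmer probe averaged 4.54, 11.9 and 12.4 in these groups. For miR-429 the brighter probe averaged 8.47, 18.1 and 21.9 units and the dimmer 2.95, 5.76 and 6.90. For miR-200a the brighter averaged 9.23, 13.8 and 16.97 and the dimmer 1.90, 4.48 and 3.45. The dimmer probes of miR-200a and miR-429 were well above background on 0 arrays.

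Whole-lobe RNA mixes cell types, so more cells of a type and more of a miRNA per cell cannot be told apart. Of 10 other miRNAs of epithelia, 7 were detected on no array, among them miR-203, miR-205, miR-375 and miR-183. MiR-31 was detected on 26 arrays, miR-96 on 14 and miR-182 on 1, and of the 2 tested none was called higher or lower where members were called. The summed signal of the detected members of that list was 73.2 to 78.8 units in normal liver, 39.7 to 93.7 at 12 hours after 1/3 PH, 63.1 to 90.4 at 24 hours and 68.9 to 92.0 at 36 hours after 2/3 PH, overlapping throughout. Of 4 tested leukocyte miRNAs 2 fell at 24 hours and 1 at 36 hours after 2/3 PH, where 8.33% and 7.64% of all tested miRNAs were called lower, with a summed signal of 209.5 to 256.5 units in normal liver and 151.2 to 188.3 and 187.1 to 197.9 at those times. Of 6 tested mesenchymal and stellate cell miRNAs 0 were called at these 3 times, with median differences of 0.32, 0.36 and -0.08. Of 4 tested hepatocyte miRNAs 1 fell at 12 hours after 1/3 PH, where 2.78% of all tested miRNAs were called lower, and 1 at 24 hours after 2/3 PH, and 0 were called at 36 hours. The tested endothelial miRNA, miR-126, and the tested red cell miRNA, miR-451, were not called, and all 3 pancreas miRNAs on the array were detected on no array. The part of these lists in the members' changes was not tested.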

How the data were processed

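The authors scanned 26 single-colour (Cy3) arrays and deposited the software's signal intensity of every spot (Agilent Feature Extraction 10.7.3.1), background-subtracted and not normalized between arrays, and a log2 table that was already normalized between arrays, used here only as an alternative. Its normalization is not given in the sources used here. Spots marked non-uniform or outlying were left out unless all were, spots of a probe were averaged and probes of a miRNA summed. The 75th percentile over 109 probes well above background on all arrays set the scaling factor of each array, low signals were set to the array's floor, and log2 was taken. Detection is the software's call.

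Differences were tested with limma 3.58.1 in R 4.3.3 (lmFit, eBayes) in 1 fit of 9 groups over the 144 miRNAs that at least 1 group had detected on all its arrays, with 17 contrasts, Benjamini-Hochberg adjustment within each and a threshold of 0.05, and the procedure was tested on simulated data. Each array is 1 rat, and the number of arrays limits the precision. Correlations used Python 3.11.15 with scipy 1.17.1. The members, the lists of cell type miRNAs (hepatocyte, other epithelial, mesenchymal and stellate, endothelial, leukocyte, red cell, pancreas) and the tests were chosen with earlier results of these data known. Named miRNAs are the members, the other strands of their hairpins, the 3 others with the highest r to each detected member and up to 3 of each list by mean level, with further epithelial miRNAs named after their values were seen. Alternatives were other scalings, background corrections, floors, summaries, detection filters, slide and scan day blocks, fits of the compared groups, eBayes with trend and leaving out each array.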

Additional observations from a re-analysis of the deposited data

How the results depend on the processing

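Of the 11 calls of members, 11 kept their direction with any one array left out and under every alternative that gave them a value (slide as a fixed block gave values for 5 of them, and the restriction to miRNAs detected on every array for miR-200b alone), and 0 were lost with a floor of 1 signal unit or eBayes with trend. All 11 were lost without scaling, with the 75th percentile over all probes and with normexp background correction, 8 with the deposited log2 table, 7 with quantile normalization, 5 with scan day as a fixed block and 5 in fits of only the groups compared. Under the first 3 of these the calls among all 144 miRNAs at 36 hours after 2/3 PH went from 27 to 1, 0 and 3, and these settings moved the median of all tested miRNAs at 12 hours after 1/3 PH to -0.65, -0.95 and 0.56 from 0.10. Leaving out 1 array lost none of 4 calls (miR-200b and miR-429 at 36 hours and late against early, all after 2/3 PH), and leaving out the third normal liver lost 5. The causes were not tested.

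The count of member and time pairs called against normal liver after 1/3 PH, 2, became 0 without scaling, with normexp and in fits of only the groups compared, and 1 with quantile normalization, the deposited table, miRNAs detected on every array (where miR-429 is not tested) and scan day as a fixed block. With the percentile over all probes it stayed 2 but with other calls, both at 6 hours (miR-429 at 1.48, and miR-200a, which was not detected there), and both calls at 12 hours were lost. It was 0 to 2 with 1 array left out. The count after 2/3 PH, 5, became 0 without scaling, with the percentile over all probes and with normexp, 1 with the deposited table, 2 with quantile normalization and with miRNAs detected on every array, and 3 with the software's total gene signal, with miRNAs detected on at least 1 array, with scan day as a block and in fits of only the groups compared. It was 2 to 5 with 1 array left out. The count between the operations, 1, became 0 without scaling and with quantile normalization, normexp, the brightest probe, the deposited table, miRNAs detected on at least 1 array, slide as a random block, scan day as a block and only the groups compared. It became 2 with the percentile over all probes, both at 6 hours and lower after 2/3 PH, where miR-429 turned from 0.01 to -1.25 and the other was miR-200a, which was not detected after 1/3 PH. It was 0 to 2 with 1 array left out. The count of late against early, 3, became 0 without scaling, with the percentile over all probes and with normexp, and 1 with quantile normalization and with miRNAs detected on every array, and was 2 to 3 with 1 array left out. The count over all times, 0, was 0 to 2 with 1 array left out, 2 without the first normal liver and 1 without the third array of 36 hours after 1/3 PH.

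The median difference over miR-200a, miR-200b and miR-429 at 12 hours after 1/3 PH, 1.11, was 0.36 without scaling, 0.053 with the percentile over all probes, 0.39 with quantile normalization, 0.79 with normexp, 1.49 with total gene signal, 1.42 with the deposited table and 0.85 to 1.27 with 1 array left out. At 24 hours after 2/3 PH, 0.87, it was 0.41 with the percentile over all probes, 0.23 with normexp, 1.84 with the deposited table and 0.53 to 1.08 with 1 array left out. At 36 hours after 2/3 PH, 1.28, it was 0.88 with quantile normalization, 0.83 with normexp, 2.07 with the deposited table and 0.99 to 1.51 with 1 array left out. Under all alternatives run, the correlations kept their sign and their side of the threshold. No paired analysis was possible because the labels give no shared replicate numbers. MiR-200a and miR-429 lie close to the floor, and this limits their early values most.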

Other observations

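The hairpin of miR-200a lies inside that of another miRNA on the opposite strand, Mir3548, and the hairpin of miR-200c inside Mir3575, likewise on the opposite strand (RefSeq, GRCr8). Both miR-3548 and miR-3575 are on the array, and each was detected on 0 of 26 arrays.

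The members' levels were also set against the brightness of the arrays, a description of all groups together. The log2 75th percentile signal of the 25 other arrays had Pearson's r of -0.204 with miR-200b (Spearman's rho 0.0554), -0.0966 with miR-200a (rho 0.0946) and -0.0457 with miR-429 (rho 0.0992), with permutation p = 0.329, 0.648 and 0.827 for r, 0.827 each after adjustment over the 3 members. With all 26 arrays r was -0.404 for miR-200b (permutation p = 0.0428, adjusted p = 0.128) and rho was -0.0619 (permutation p = 0.766).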
